A study of Mus musculus with 91 samples.

Results

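Livers of 5 adult male C57BL mice given cyproterone acetate (CPA) were set against livers of 5 male C57BL mice given its vehicle, corn oil. CPA was given daily by oral gavage at 160 mg/kg for 28 days, and the corn oil group, at 0 mg/kg, is the control that the sample labels name for it. These 10 livers were chosen by their titles from the 91 of the study, which measured liver RNA of male mice in 19 groups on Affymetrix arrays, 1 array per liver. The labels name no transgene or deletion in either group, the series states a C57BL/6J strain with random assignment to groups of 5, and pooling of animals is not mentioned. The series sets carcinogenic against non-carcinogenic chemicals, and the comparison here asks which genes of the liver differed after 28 days of CPA. For each of 18193 genes the log2 value of 1 probe set was tested with limma, and a gene was said to change at a p-value below 0.05 after Benjamini-Hochberg adjustment over all 18193 genes. Differences are on the log2 scale, CPA minus corn oil, so that 1 is a 2-fold change, and ± after a difference is its standard error from the fit. The fit took its spread from all 19 groups, so ± and p do not measure the spread among the treated livers alone.

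Cyproterone acetate is a synthetic steroid that blocks the androgen receptor and acts as a progestin. In rodent liver it is also known as an activator of the pregnane X receptor (PXR). PXR and the related constitutive androstane receptor (CAR) sense foreign compounds and switch on genes for oxidation (cytochromes P450), conjugation (sulfotransferases, glutathione transferases) and export. Liver expression also follows the time of day, the feeding state, growth hormone and, through its resident immune cells, inflammation, and gene lists for each of these were examined.

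All 10 arrays were on the scale of the whole series, whose array medians ran from 5.18 to 5.36. Treated liver 2 stood apart. Its root mean square deviation from its group mean was 0.414, the largest of all 91 arrays, against 0.217 to 0.233 in the other 4 treated livers and 0.182 to 0.218 in the controls. In that liver 995 genes lay more than 1 log2 unit from the mean of the other 4, against 117 to 160 in those, so results that rest on it are also given without it. The mean of 14 measured hepatocyte markers was high throughout, at 13.14 to 13.60 in treated and 13.55 to 13.73 in control livers, with the lowest value in treated liver 2.

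After CPA 476 genes were higher and 492 lower, 2.62% and 2.70% of the genes tested and 5.32% together. At least 2-fold changes were found for 70 of the higher genes (0.385% of all tested) and 79 of the lower genes (0.434%). All 5 treated livers lay above the range of the 5 controls for 459 genes (2.52%) and below it for 427 (2.35%), called or not. The number of calls fell to 602 without treated liver 2, to 633 without control liver 2 and to 670 without control liver 3. Without treated liver 2, 502 of the 968 genes were called again, and none of the genes called with and without it changed direction.

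Among the genes with all treated values above the controls, the largest rises were those of Sult1e1, Moxd1, Cyp2b10, Nebl, Cyp2c55, Gstm3, Acnat2, Sult2a2, Dct, Orm3, Rnase2a and Cav1. They ran from 6.39 down to 2.85, or from 84.1-fold to 7.20-fold, and the 12 kept their call with any 1 of the 10 livers left out. Sult1e1 encodes the estrogen sulfotransferase, which inactivates estrogens. Its values were 12.30, 9.25, 7.71, 12.33 and 9.01 in treated livers 1 to 5 and 3.57, 3.56, 3.64, 3.97 and 3.90 in the controls. Every treated liver was far above every control, and livers 1 and 4 were the highest. Moxd1, which encodes a monooxygenase-like copper protein, read 7.0, 11.08, 11.89, 9.99 and 8.64 after CPA and 3.87 to 4.23 in the controls (5.65 ± 0.869, adjusted p = 2.84e-06). Here liver 1 was the lowest of the treated livers, and in the 27 livers of the 6 other 28-day C57BL control groups Moxd1 spread from 3.97 to 8.59, overlapping the treated livers.

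Nebl, which encodes nebulette, an actin-binding protein best known from heart muscle, was at 8.79, 7.81, 7.78, 8.31 and 7.91 after CPA and at 4.16, 4.16, 4.27, 3.81 and 4.49 after corn oil. Its treated livers were close together, with an SD of 0.431 (n = 5), and its rise of 3.94 ± 0.255 had an adjusted p of 8.05e-22. Of 3 Nebl probe sets only the one reported passed, and the lowest difference among them was -0.02. Dct, the melanin pathway gene for dopachrome tautomerase, was even tighter among treated livers, at 11.07, 10.85, 10.81, 10.91 and 10.67 against 7.15 to 8.56 (3.07 ± 0.455, adjusted p = 1.13e-06). Cav1, which encodes the caveolar coat protein caveolin-1, read 9.41 to 11.07 after CPA and 6.58 to 7.78 after corn oil (2.85 ± 0.327). Rnase2a, a gene of the eosinophil ribonuclease family, fell into separate levels among treated livers, at 7.49, 7.47 and 7.71 in livers 2, 3 and 4 and 5.24 and 5.14 in livers 1 and 5. All were above the controls at 3.36 to 3.81. Acnat2, an acyltransferase gene, rose by 3.36 ± 0.400, from 5.96 to 8.70 in the controls to 9.67 to 10.98.

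**Figure D1:**
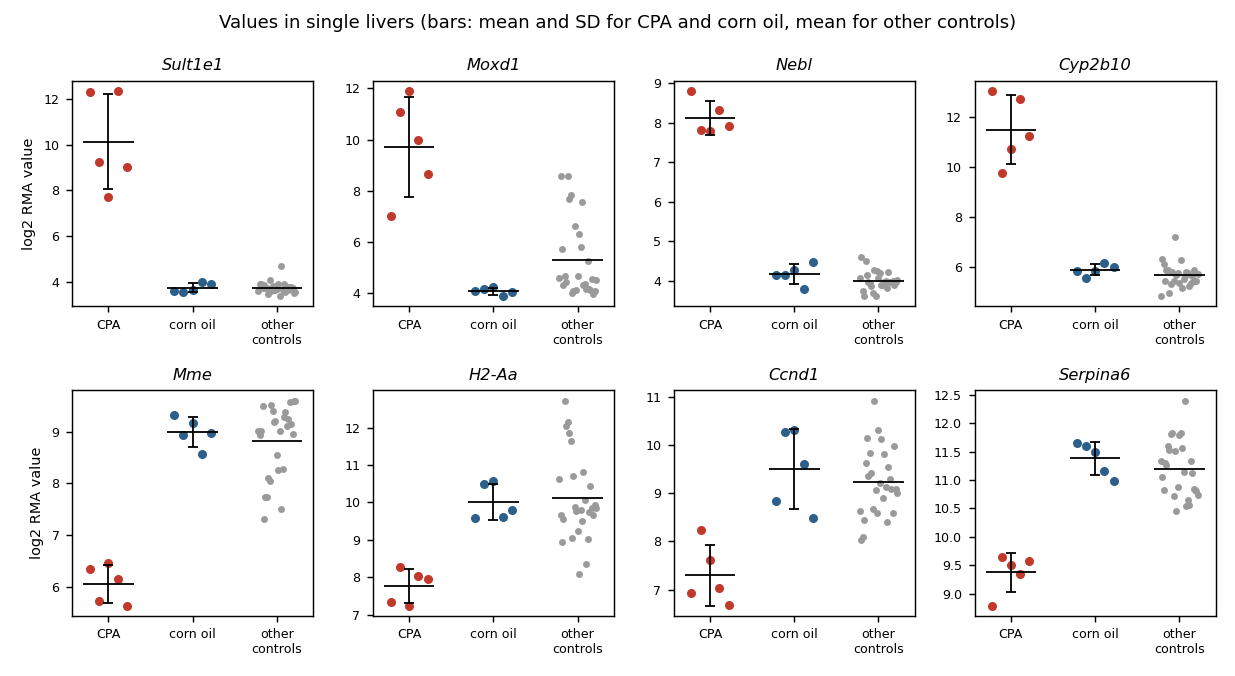
Log2 values of 4 genes that rose and 4 that fell, 1 point per liver, in 5 CPA livers, 5 corn oil livers and 27 livers of other 28-day C57BL control groups; lines give means, with SD for CPA and corn oil. Sult1e1, Nebl and Cyp2b10 in treated livers lie above every control liver shown and Mme and Serpina6 below, while Moxd1, H2-Aa and Ccnd1 overlap the other control groups.

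A part of the classical targets of the xenobiotic receptors rose. Of 16 measured genes on a list of PXR targets 7 rose and none fell (background 2.62% higher, 2.70% lower), with a list median of 0.362 against 0.02 over all genes. Of 26 measured CAR targets 8 rose and none fell (median 0.359), and Cyp2c55 is on both lists. Cyp2b10, the standard CAR target and a cytochrome P450 of drug oxidation, read 13.02, 9.76, 10.71, 12.72 and 11.24 after CPA against 5.83, 5.58, 5.87, 6.19 and 6.01. It rose by 5.60 ± 0.467 (48.4-fold, adjusted p = 4.82e-16), again with livers 1 and 4 on top. Cyp2c55, a P450 of fatty acid oxidation, read 11.73, 10.50, 10.27, 12.19 and 10.89 against 7.17 to 7.78, with the same pair highest. Ces2a, a carboxylesterase of drug and ester hydrolysis, rose by 1.85 ± 0.121 with little spread, from 11.70 to 12.50 in the controls to 13.85 to 14.33.

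The Cyp3a genes, whose P450 enzymes oxidise steroids and many drugs, moved less. Cyp3a11, the main PXR target of mouse liver, lay at 14.97, 14.94, 14.87, 14.91 and 14.98 after CPA and at 14.53, 14.51, 14.65, 14.67 and 14.67 after corn oil. The groups did not overlap and the difference was 0.33 ± 0.051 (adjusted p = 3.72e-06). These values lay close to the highest of the series, 15.34, and whether values there are compressed was not tested. Cyp3a44 rose by 1.10 ± 0.164, from 4.61 to 5.41 up to 5.68 to 6.55. The retinal and drug aldehyde dehydrogenase genes Aldh1a7 (0.48) and Aldh1a1 (0.42) also rose, and Aldh1a1 lost its call without control liver 2 (adjusted p = 0.100) or control liver 4 (adjusted p = 0.0665). Slco1a4, a bile salt and drug uptake carrier, missed the threshold (0.98 ± 0.349, adjusted p = 0.0877), as did Alas1, the rate-limiting gene of heme synthesis (-1.01 ± 0.441, adjusted p = 0.189). Cyp and Gst families have members of close sequence, so that their probe sets may share signal.

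Several glutathione transferase genes, whose enzymes conjugate electrophiles with glutathione, rose. Gstm3 read 14.43, 13.31, 13.93, 14.51 and 14.11 against 9.74 to 11.27 (3.48 ± 0.326). Gstm2 read 12.23, 10.82, 11.59, 12.56 and 11.79 against 8.90 to 9.38 (2.67 ± 0.205). Gstt3 (1.66), Gstm4 (0.92) and Gstm1 (0.72) rose too, although treated and control values of Gstt3 overlapped. On the list of NRF2 targets, the antioxidant response, 5 of 29 rose (17.24%, against 2.62% over all genes) and none fell. They were Gstm3, Gstm2, Gstm4, Gstm1 and the carbonyl reductase gene Cbr1 (0.79 ± 0.200). Gstm1, Gstm2 and Gstm3 are on the CAR list as well and were counted there too. The other 24 did not pass, among them Nqo1 (0.72), Osgin1 (-1.02), Gclc, Gclm, Hmox1, Srxn1 and Txnrd1. Cbr1 missed the threshold without treated liver 1 (adjusted p = 0.0508). Of the 7 measured targets of the aryl hydrocarbon receptor none passed.

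The genes of the receptors themselves did not pass the test. Nr1i2, which encodes PXR, read 7.24, 5.93, 6.81, 7.19 and 6.78 against 7.21 to 7.31 (-0.49 ± 0.178, adjusted p = 0.0960), and Nr1i3, which encodes CAR, 9.57 to 10.24 against 9.01 to 9.94 (0.52 ± 0.227, adjusted p = 0.191). Of 11 measured xenobiotic and metabolic receptor genes 2 fell. Ppara, the fatty acid receptor, fell by 1.14 ± 0.198 with no overlap, and Hnf4a, a master regulator of hepatocytes, by 0.47 ± 0.117. Without treated liver 2 Hnf4a no longer passed (adjusted p = 0.0887). The androgen receptor gene was not measured by a probe set of its own.

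Sulfotransferases, which add sulfate to steroids, bile acids and phenols, had 4 of 14 measured genes higher and none lower, each with all treated livers above the controls. Beside Sult1e1, the hydroxysteroid sulfotransferase gene Sult2a2 rose by 3.15 ± 0.613 (adjusted p = 0.000286), but its treated values were 11.86, 4.54, 4.08, 9.75 and 4.19 against 3.61 to 3.96. Livers 1 and 4 thus carried most of the difference, which was 1.91 without liver 1, and with only the 2 groups compared in the fit the call ended (adjusted p = 0.263). Sult1d1, for catecholamines and other phenols, rose by 1.28 ± 0.164 and Sult1b1, for thyroid hormones and phenols, by 1.08 ± 0.237. Sult3a1 was high in livers 1, 4 and 5, at 6.89, 6.26 and 7.22, and at 3.74 and 3.48 in livers 2 and 3, against 3.29 to 3.50 in the controls (2.12 ± 0.721, adjusted p = 0.0685).

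The promoters of Sult1e1 and Cyp3a11 are shown for the nuclear receptor hexamers near their start sites. Sequences are those of RefSeq on GRCm38.p6, and capitals mark AGGTCA or AGTTCA on either strand within the 250 bases before the start. The Sult1e1 stretch is chr5:87591689-87591754 on the minus strand and holds 1 match. The Cyp3a11 stretch is chr5:145879961-145880046 on the minus strand and holds 2.
Sult1e1: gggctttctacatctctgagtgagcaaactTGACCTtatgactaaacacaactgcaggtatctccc
Cyp3a11: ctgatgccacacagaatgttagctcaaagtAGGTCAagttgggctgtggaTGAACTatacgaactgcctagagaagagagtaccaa
Of the 18 PXR or CAR targets and sulfotransferases that rose, 17 had a promoter entry, and 8 of these held either hexamer. Among 32851 mouse promoter windows of 250 bases 24.16% held either hexamer, 14.02% AGGTCA and 11.84% AGTTCA. A gene was counted when any of its promoter entries held a match, so counts of genes and shares of single windows are unlike measures. A match describes the sequence and is not evidence of binding.

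**Figure D2:**
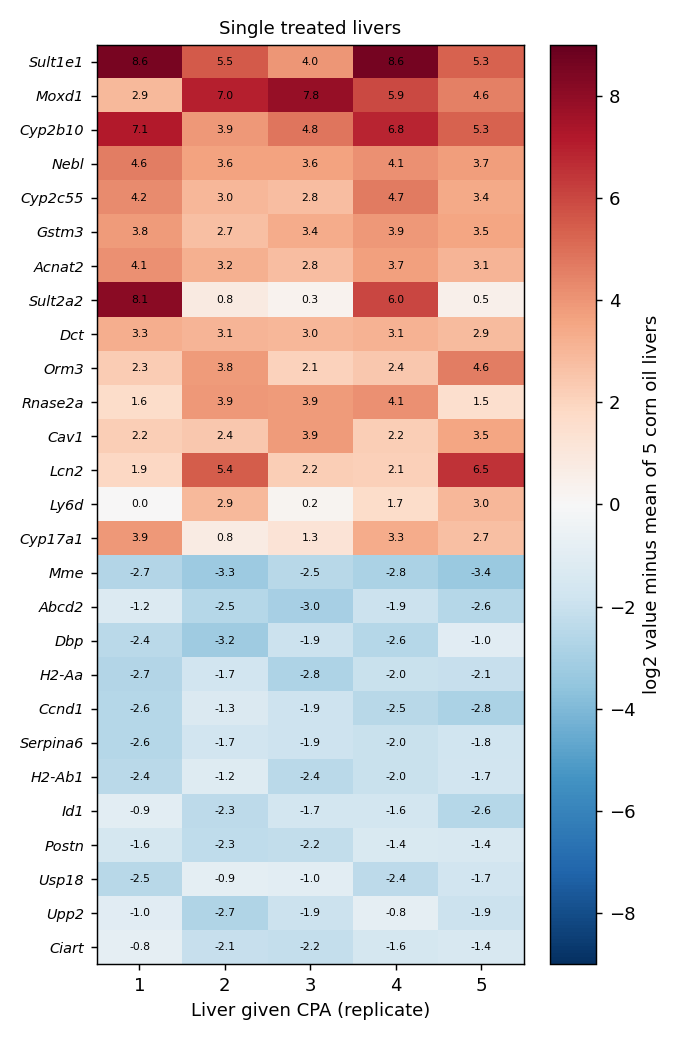
Log2 value of each of the 5 CPA livers minus the mean of the 5 corn oil livers, for the 12 largest rises, 3 further genes that differ among treated livers (Lcn2, Ly6d, Cyp17a1) and the 12 largest falls. Livers 1 and 4 are highest for Sult1e1, Cyp2b10 and Sult2a2, and livers 2 and 5 for Lcn2, Orm3 and Ly6d.

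Treated livers 1 and 4 also led for steroid genes that differ by sex in mice. Cyp17a1, whose P450 makes androgen precursors, read 12.48, 9.33, 9.83, 11.89 and 11.28 after CPA and 8.63, 8.58, 9.27, 8.73 and 7.61 after corn oil (2.40 ± 0.501, adjusted p = 0.000843). Ugt2b38, a glucuronosyltransferase gene on the male-biased list, read 5.11, 9.99, 8.41, 5.31 and 5.47 against 8.39 to 9.96 (-2.37 ± 0.665, adjusted p = 0.0192). It was low in livers 1, 4 and 5 and within the control range or just above it in livers 2 and 3, and the call was lost without treated liver 1, 4 or 5 or control liver 4 (adjusted p up to 0.0934). Over the lists, 4 of 26 female-biased genes rose (Cyp2b10, Cyp17a1, Cyp3a44 and 1 other) and 2 fell, Cyp4a14 and Abcd2, which also belong to the PPARα list. Of 28 male-biased genes 3 fell, Ugt2b38, Cyp2u1 (-1.07 ± 0.250) and the methyltransferase gene Inmt (-0.73 ± 0.144), and 1 rose, the cell cycle inhibitor gene Cdkn2c (0.58 ± 0.159). Cdkn2c lost its call without treated liver 2 or control liver 4 (adjusted p up to 0.0896). Of 16 genes of growth hormone and STAT5 signalling 2 fell and none rose. Most members of both sex-biased lists, 20 of 26 and 24 of 28, did not pass.

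The largest falls among genes with all treated values below the controls were those of Mme, Abcd2, Dbp, H2-Aa, Ccnd1, Serpina6, H2-Ab1, Id1, Postn, Usp18, Upp2 and Ciart, from -2.93 to -1.61. All 12 kept their call with any 1 liver left out. Mme, which encodes neprilysin, a peptide-cleaving enzyme of the cell surface, read 6.34, 5.73, 6.46, 6.15 and 5.64 after CPA and 9.32, 8.94, 9.16, 8.57 and 8.97 after corn oil. It fell by 2.93 ± 0.262 (7.62-fold, adjusted p = 1.36e-14) and by 0.80 at the weaker of its 2 probe sets, which also passed. Serpina6, which encodes corticosteroid-binding globulin, the carrier of glucocorticoids in blood, read 8.79, 9.64, 9.51, 9.35 and 9.58 against 11.65, 11.60, 11.50, 11.16 and 10.99 (-2.0 ± 0.195, adjusted p = 5.28e-13). For Mme and Serpina6 the treated livers were also below all 27 livers of other control groups, which spread from 7.32 to 9.60 and from 10.46 to 12.39. Id1, an inhibitor of basic helix-loop-helix factors and a target of BMP signalling, fell by 1.83 ± 0.413, from 8.57 to 9.70 down to 6.46 to 8.10.

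Some falls were smaller against the other control groups, whose titles name vehicles other than corn oil. Vehicle and treatment differ together in that comparison, and the part of each was not tested. Abcd2, a peroxisomal fatty acid transporter gene, read 6.66, 5.35, 4.88, 5.95 and 5.31 against 7.05, 8.64, 8.95, 8.15 and 6.67 (-2.26 ± 0.488, adjusted p = 0.00133), and 1 of its 4 probe sets passed. In the other control groups it ran from 4.07 to 8.58, and set against their mean the treated livers differed by -0.49 (adjusted p = 0.361). Postn, a matrix protein gene, fell by 1.76 ± 0.319 against corn oil and differed by -0.27 against the other groups (adjusted p = 0.456). Upp2, a uridine phosphorylase gene, fell by 1.68 ± 0.255 and differed by -0.28 (adjusted p = 0.298). Corn oil livers were near or above the highest of the other controls for Upp2 (11.93 to 12.30 against 8.50 to 12.16). Over all called genes, the 5 treated livers lay above all 32 control livers of 28 days for 78 genes and below them for 37. Over all 18193 genes, called or not, these counts were 101 and 53.

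Genes of antigen presentation by MHC class II fell. Of 10 measured genes 4 fell and none rose, with a list median of -0.342, and the 4 were called with any 1 liver left out. H2-Aa, an MHC class II alpha chain, read 7.34, 8.28, 7.24, 8.03 and 7.95 after CPA and 9.58, 10.49, 10.56, 9.61 and 9.79 after corn oil (-2.24 ± 0.371, adjusted p = 1.63e-05). H2-Ab1, its beta chain partner, fell by 1.93 ± 0.371, from 7.82 to 8.97 down to 5.88 to 7.13. H2-Eb1, a beta chain, fell by 1.43 ± 0.318, and Cd74, the invariant chain that guides class II assembly, by 1.20 ± 0.267. Cd74 was nearly flat among treated livers, at 6.50, 6.47, 6.49, 6.41 and 6.43 against 7.30 to 8.19. H2-DMa, a peptide exchange factor, lay below the control range in all treated livers and missed the threshold (-0.34 ± 0.142, adjusted p = 0.167), although its other probe set passed when every probe set was tested, at -0.99. H2-Ob, its modulator, missed the threshold too (-0.34 ± 0.141, adjusted p = 0.153).

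Class II genes are expressed by B cells, dendritic cells and macrophages, and in whole liver fewer cells of a type and less RNA per cell cannot be told apart. Of 12 markers of B and dendritic cells 1 rose, Ly6d, and none fell, and their mean was 4.97 to 5.39 in treated and 5.01 to 5.28 in control livers. Of 20 macrophage markers none passed, with means of 7.82 to 8.54 and 7.83 to 8.57. Marco, a scavenger receptor gene of resident macrophages, lay above the controls in all treated livers and missed the threshold (1.11 ± 0.503, adjusted p = 0.215), while the other of its 2 probe sets passed at 0.997. Csf1r, the receptor of their growth factor, differed by -0.67 ± 0.339 (adjusted p = 0.290). None of 11 markers of T and NK cells passed (means 5.11 to 5.37 and 5.23 to 5.54). The part of these cells in the fall of class II genes was not tested. Ly6d is also on a list of oncofetal genes, where it was the only 1 of 14 to pass. The 14 include Nckap1, a different gene that was matched in place of H19. Ly6d read 9.07, 7.85 and 9.14 in treated livers 2, 4 and 5, 6.22 and 6.40 in livers 1 and 3, and 6.06 to 6.27 in the controls (1.56 ± 0.352, adjusted p = 0.00218, and 0.147 with only the groups compared in the fit).

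Of the 4 class II genes that fell, 2 had a RefSeq promoter entry. These promoters, of H2-Aa and H2-Eb1, are shown for the CCAAT box (capitals, either strand), a known part of class II promoters. They are chr17:34287827-34287911 (minus strand) and chr17:34305768-34305866 (plus strand) on GRCm38.p6.
H2-Aa: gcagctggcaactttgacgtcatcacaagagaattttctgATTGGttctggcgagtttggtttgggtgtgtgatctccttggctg
H2-Eb1: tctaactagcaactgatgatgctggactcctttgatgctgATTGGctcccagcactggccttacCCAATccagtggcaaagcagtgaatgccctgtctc
The H2-Aa stretch holds 1 match and the H2-Eb1 stretch 2. CCAAT was found in 33.85% of all 250-base windows, so that its presence in both is no mark of these genes.

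Interferon response genes were lower as well, 6 of 25 with none higher (median -0.401). Usp18, which removes the ubiquitin-like protein ISG15 and dampens interferon signalling, read 5.27, 6.92, 6.81, 5.42 and 6.05 against 7.82, 8.17, 7.72, 7.65 and 7.59 (-1.69 ± 0.218, adjusted p = 2.12e-08). Livers 1 and 4 were the lowest. Irf7, the transcription factor that amplifies type I interferon, fell by 0.70 ± 0.182, from 7.64 to 7.96 down to 6.65 to 7.16, which is also below all other control livers. The guanylate-binding protein genes Gbp3 (-1.29 ± 0.262) and Gbp7 (-0.76 ± 0.223) and the antiviral gene Ifit2 (-1.0 ± 0.246) fell. Gbp7 lost its call without treated liver 1 or 4 or control liver 2 or 3 (adjusted p up to 0.115), and Ifit2 without control liver 2 (adjusted p = 0.0628). The chemokine gene Cxcl9 missed the threshold (-1.16 ± 0.461, adjusted p = 0.133). In treated liver 2 the mean of the list, 8.10, was above the controls (7.41 to 7.82), while the other 4 treated livers were below them, at 6.74 to 7.22. Without liver 2 the count lower was 8, and without control liver 2 it was 3.

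The circadian clock had the largest share of members called, apart from a list of 5 genes drawn from earlier results of these data. Clock genes form a loop in which CLOCK and ARNTL (BMAL1) drive their own repressors, the Per and Cry genes, and output factors such as Dbp and Tef. Of 24 measured genes 12 fell and 2 rose, with a list median of -0.565, the lowest of the 42 lists. Those that fell were Dbp, Ciart, Per3, Usp2, Per1, Per2, Tef, Wee1, Bhlhe40, Lonrf3, Cry2 and Rora, and those that rose were Arntl and Clock, several of them named here after their values were seen. Of 9 Rora probe sets 2 passed lower and 1 passed higher, over a range from -0.62 to 0.40, so that its direction depends on the probe set. Only a part of the probe sets passed for Per3 (4 of 6), Tef (2 of 3), Per2 (1 of 3) and Lonrf3 (1 of 2). The same holds for Clock (3 of 4) and Arntl (1 of 2, the other at 0.13). None of these passed in the opposite direction, and for the other clock genes called every probe set passed. Dbp, an output factor that binds D-boxes, read 9.46, 8.67, 9.97, 9.31 and 10.88 after CPA and 11.77, 12.17, 11.91, 11.61 and 12.06 after corn oil (-2.24 ± 0.462, adjusted p = 0.000677). Arntl moved the other way, at 7.67, 6.95, 7.5, 7.82 and 6.68 against 6.02, 5.93, 5.87, 5.95 and 6.17 (1.34 ± 0.241, adjusted p = 7.61e-05), and Clock rose by 0.72 ± 0.178.

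Ciart, a repressor of CLOCK and ARNTL, fell by 1.61 ± 0.280, Per3 by 1.58 ± 0.310, Usp2, a clock-driven deubiquitinase gene, by 1.57 ± 0.329 and Per1 by 1.38 ± 0.331, each with no overlap between the groups. Per2, Cry2, Rora and Lonrf3 lost their call without treated liver 2 (adjusted p up to 0.373), where Cry2 was lowest at 5.90 against 7.24 to 7.51 in the other treated livers, and with 1 other member passing the count lower was then 9. The same 4 lost it without control liver 2, which left 8. Cry2 lost it also without control liver 3 or 5, Rora without control liver 3, and Lonrf3 without treated liver 4 or control liver 1 or 5. Control livers of other groups spanned a wider range than either group. Dbp ran there from 6.27 to 12.15, and the corn oil livers, at 11.61 to 12.17, were at the upper end of it while the treated livers lay inside. Set against the mean of those groups the treated livers differed by -0.50 for Dbp (adjusted p = 0.314), -0.15 for Ciart (adjusted p = 0.653), -0.08 for Usp2 (adjusted p = 0.856) and 0.07 for Wee1 (adjusted p = 0.842), and Per2, Bhlhe40 and Cry2 did not pass either. That comparison called 5816 genes, and 787 (81.3%) of the 968 genes called against corn oil passed in it too. Of these 787, 5 changed direction. A pass there was thus common among called genes and does not single out clock genes. The other 7 called clock genes passed there in the same direction. They were Lonrf3 (-0.78), Per1 (-0.75), Per3 (-0.62), Tef (-0.52), Rora (-0.44), Arntl (0.47) and Clock (0.37), with adjusted p from 0.000227 to 0.0424, and apart from Lonrf3 the difference was smaller than against corn oil. The hour at which each liver was taken is not in the labels, and its part in these differences was not tested.

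**Figure D3:**
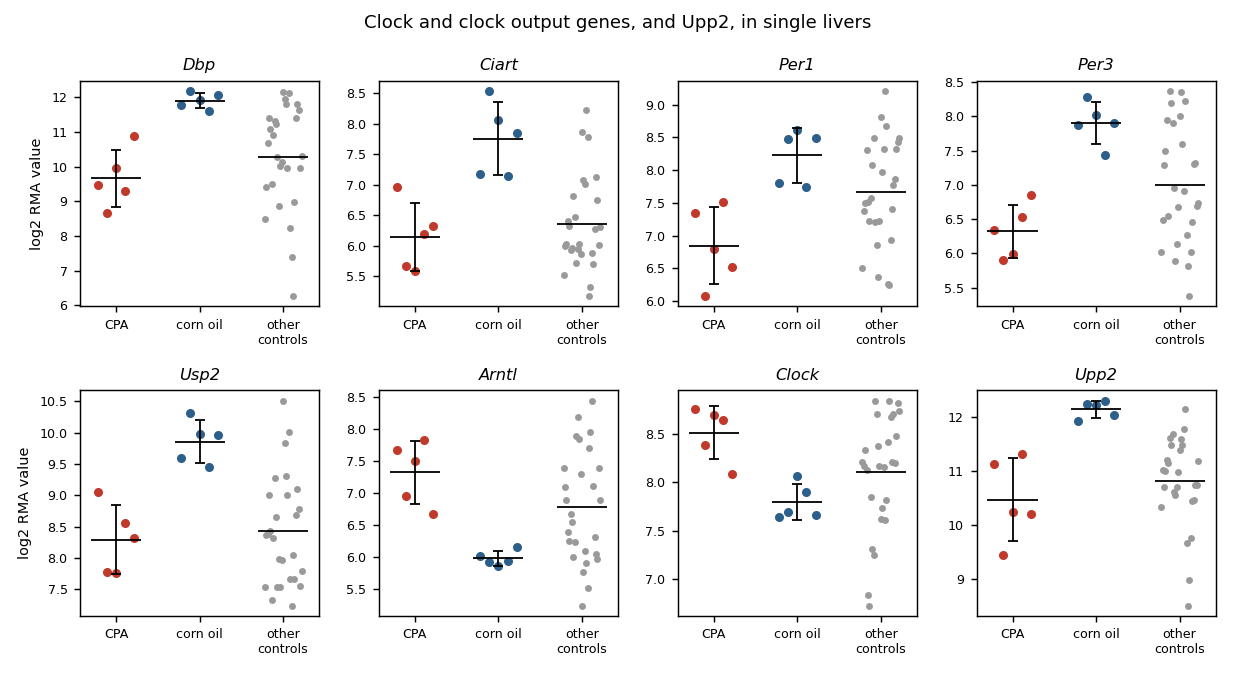
Log2 values of 7 clock and clock output genes and Upp2, 1 point per liver, in CPA livers, corn oil livers and 27 livers of other 28-day control groups; lines give means, with SD for CPA and corn oil. Dbp, Ciart, Per1, Per3, Usp2 and Upp2 are lower and Arntl and Clock higher in CPA than in corn oil livers, and the other control livers span most of both ranges.

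Promoters of 4 clock genes that fell are printed for the E-box CACGTG, which CLOCK and ARNTL bind, and the D-box TTATGTAA, which Dbp and Tef bind. Capitals mark the E-box in Per1, Ciart and Tef and the D-box in Per3. They are chr11:69098748-69098823 (plus), chr3:95882232-95882379 (minus), chr15:81802511-81802586 (plus) and chr4:151044781-151044905 (minus) on GRCm38.p6.
Per1: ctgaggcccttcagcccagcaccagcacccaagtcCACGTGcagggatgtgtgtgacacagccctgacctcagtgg
Ciart: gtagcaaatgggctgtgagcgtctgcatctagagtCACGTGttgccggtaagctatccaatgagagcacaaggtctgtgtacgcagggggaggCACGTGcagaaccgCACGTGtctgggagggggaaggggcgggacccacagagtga
Tef: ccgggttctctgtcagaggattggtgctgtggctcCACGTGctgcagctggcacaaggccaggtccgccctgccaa
Per3: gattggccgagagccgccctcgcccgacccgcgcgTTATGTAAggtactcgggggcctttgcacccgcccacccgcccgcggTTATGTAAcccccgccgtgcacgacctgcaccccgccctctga
Ciart holds 3 E-boxes and Per3 holds 2 D-boxes. Of the 12 genes that fell 9 had a promoter entry (not Per2, Bhlhe40 and Wee1), and 4 of these held CACGTG (Per1, Tef, Ciart and Lonrf3) and 1 TTATGTAA. Over all windows, both strands searched, the shares were 6.02% for CACGTG, which reads the same on both strands, and 0.82% for TTATGTAA. These are shares of single windows, whereas a gene was counted when any of its promoter entries held the motif.

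Some genes of fatty acid use fell. PPARα, the product of Ppara, drives fatty acid oxidation in mitochondria and peroxisomes, and 10 of 37 measured targets fell and none rose (median -0.274). Cpt1a, the gate to mitochondrial oxidation, read 10.51, 10.08, 10.77, 10.21 and 10.51 against 11.57, 11.43, 11.47, 11.54 and 11.16 (-1.02 ± 0.146, adjusted p = 4.82e-07). Acaa1b, a peroxisomal thiolase gene, read 13.62, 12.75, 13.86, 13.43 and 13.11 against 14.18 to 14.56 (-1.02 ± 0.144). Cyp4a14, a fatty acid hydroxylase gene, read 12.05, 6.08, 10.05, 8.01 and 7.27 against 11.33 to 12.70 (-3.20 ± 0.816, adjusted p = 0.00879). Its treated livers spread over most of the range of the other controls, 4.84 to 13.21, and the call was lost without treated liver 2 (adjusted p = 0.0787). Cyp4a31 fell by 1.32 ± 0.338. Fgf21, a fasting hormone gene (-1.51 ± 0.644, adjusted p = 0.179), and Pdk4, a brake on glucose oxidation (1.04 ± 0.489, adjusted p = 0.238), missed the threshold. Without treated liver 2 the count lower was 6.

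Genes of fatty acid synthesis and desaturation fell too, with 7 of 21 genes lower and none higher (median -0.481). Fads2, the delta-6 desaturase of polyunsaturated fatty acids, read 9.69, 9.36, 10.35, 10.29 and 9.80 against 11.10, 11.45, 11.57, 11.27 and 10.88 (-1.36 ± 0.212, adjusted p = 3.76e-06), and Fads1, the delta-5 desaturase, fell by 0.92 ± 0.177. Lpin1, a phosphatidate phosphatase gene, fell by 1.64 ± 0.438, Fasn, the fatty acid synthase, by 1.00 ± 0.316 and Acly, which makes acetyl-CoA from citrate, by 0.88 ± 0.221, and in these the groups overlapped. Treated liver 2 was the lowest for all 5. Without it Lpin1 differed by -1.04 (adjusted p = 0.197) and Fasn by -0.56 (adjusted p = 0.411), Acly missed the threshold too (adjusted p up to 0.0736), and the count lower was 3. Lpin1 also lost its call without treated liver 3 or control liver 4, Acly without control liver 5, and Fasn without treated liver 1 or 3 or control liver 2, 3 or 5. Of 20 sterol synthesis genes 2 fell and none rose. Gys2, the liver glycogen synthase gene, fell by 0.97 ± 0.177 with no overlap, and Khk, ketohexokinase of fructose metabolism, rose by 0.65 ± 0.184. Khk was not called without treated liver 4 or control liver 2, 3 or 4 (adjusted p up to 0.108). Insr, the insulin receptor gene, fell by 0.48 ± 0.127, and by 0.24 without treated liver 2 (adjusted p = 0.277). Of 3 Insr probe sets 1 passed, and the highest difference among them was 0.018.

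Cell cycle genes did not rise as a group. Ccnd1, the G1 cyclin that starts the cycle in hepatocytes, read 6.92, 8.23, 7.61, 7.03 and 6.68 after CPA and 8.83, 10.27, 10.31, 9.60 and 8.49 after corn oil (-2.21 ± 0.393, adjusted p = 6.30e-05), and its 3 probe sets all passed. Of 16 G1 genes 2 fell, Ccnd1 and Ccnd2 (-0.55 ± 0.175), and 2 rose, Cdkn2c and Ccng2 (0.59 ± 0.157). Ccnd2 kept its call only without control liver 5, and Ccng2 lost it without treated liver 2 (adjusted p = 0.0800). None of 25 genes of S phase and mitosis passed (median -0.195). Mki67, the proliferation marker, read 4.78, 5.01, 4.86, 4.72 and 4.76 against 5.17, 5.66, 5.28, 5.69 and 5.07, below the controls in all treated livers but not past the threshold (-0.55 ± 0.349, adjusted p = 0.429). The mitotic cyclin gene Ccnb2 (-0.83 ± 0.305, adjusted p = 0.0969) and the replication helicase gene Mcm5 (-0.75 ± 0.285, adjusted p = 0.112) also missed it. Of 17 genes of the p53 and damage response 1 rose, Gadd45b (1.27 ± 0.293), which is a CAR target as well, and it missed the threshold without treated liver 2 (adjusted p = 0.0627).

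Acute phase genes, which hepatocytes make in inflammation, rose for 6 of 27 with none lower (median 0.132). The rises were carried by treated livers 2 and 5. Lcn2, an iron-siderophore binding protein gene, read 9.02, 12.61, 9.42, 9.31 and 13.64 against 9.35, 6.81, 7.01, 6.57 and 6.09 (3.63 ± 0.979, adjusted p = 0.0141). Orm2, an acid glycoprotein gene, read 8.32, 12.26, 9.0, 8.35 and 12.78 against 6.34 to 9.36 (2.75 ± 0.888). In control liver 1 both genes were also high. Orm3, of the same family, rose by 3.04 ± 0.474 with all treated livers above the controls (8.11 to 10.66 against 5.40 to 7.09). Apcs, serum amyloid P, rose by 1.20 ± 0.321 and Lbp, which binds lipopolysaccharide, by 0.94 ± 0.282. Without treated liver 2 or without treated liver 5 the count higher fell to 1. Lcn2 then had an adjusted p of 0.0709 or 0.0717. All of Orm2, Lbp and Apcs missed the threshold in either case. Orm2 also missed it without control liver 2, 3, 4 or 5 (adjusted p up to 0.222), Lbp without treated liver 1 or control liver 2, 3 or 5 (up to 0.105), and Apcs without control liver 5 (up to 0.106). The mean of the list was 13.16 and 13.10 in treated livers 2 and 5, 11.37 to 11.50 in the other 3 and 11.06 to 12.13 in the controls. The metallothionein genes Mt2 (1.22 ± 0.840) and Mt1 (0.92 ± 0.763) did not pass.

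Of 25 measured targets of glucocorticoids 2 were higher and 3 lower, and the other 20 did not pass. Over all genes 2.62% were higher and 2.70% lower. The list median was -0.101, against 0.02 over all genes. Ddit4, an inhibitor of mTOR, rose by 0.95 ± 0.224, as did Lcn2, and Lpin1, Per1 and Klf9 fell. Lcn2 is on the acute phase list, Lpin1 on the fatty acid synthesis list and Per1 on the clock list, and they were counted there too. Klf9, also a thyroid hormone target, fell by 0.60 ± 0.167 and by 0.32 without treated liver 2 (adjusted p = 0.306), and it lost its call without control liver 4. Fkbp5, a classical target, read 11.20, 8.92, 9.95, 10.56 and 9.63 against 8.99 to 10.24 (0.58 ± 0.318, adjusted p = 0.336), with livers 1 and 4 highest, and Zbtb16 missed the threshold (-1.25 ± 0.408, adjusted p = 0.0555). Of the 3 probe sets of Fkbp5, and of the 3 of Zbtb16, 1 passed in the same direction.

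Bile acid genes were called at close to the share over all genes, with 1 of 31 higher and 1 lower (3.23% each, against 2.62% and 2.70%). Cyp7a1, the rate-limiting enzyme of bile acid synthesis, read 10.51, 9.26, 10.42, 11.21 and 10.24 against 10.00 to 10.90, a difference of 0.06 ± 0.409 (adjusted p = 0.965). Akr1d1, the steroid 5-beta-reductase, rose by 0.68 ± 0.176 with no overlap, although without control liver 2 its adjusted p was 0.0506, and Cyp4v3 fell by 0.56 ± 0.139. Of 12 carboxylesterases Ces2a rose and Ces1e (-0.69 ± 0.188) and Ces1f (-0.50 ± 0.134) fell, both not called without treated liver 2 (adjusted p up to 0.104). Herpud1, a gene of protein quality control in the endoplasmic reticulum, fell by 1.26 ± 0.198 and was the only 1 of 21 genes of the unfolded protein response to pass. Against the mean of the other control groups it differed by -0.29 (adjusted p = 0.142). Enho, the gene of the secreted peptide adropin, fell by 1.66 ± 0.346 and was the only 1 of 14 hepatokine genes to do so. Of 4 Enho probe sets 2 passed, and the highest difference among them was 0.097. Among amino acid genes Gldc of glycine cleavage (0.85 ± 0.199) and Kynu of tryptophan breakdown (0.64 ± 0.120) were the 2 of 26 that rose, and 2 fell (7.69% each). The shares lower were 4.76% for the unfolded protein response and 7.14% for hepatokines. Over all genes 2.62% were higher and 2.70% lower.

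Of 16 stellate cell and matrix genes 2 fell and none rose (median -0.515), the collagen gene Col3a1 (-1.49 ± 0.466) and the transcription factor gene Hand2 (-0.89 ± 0.260). Col3a1 was lost without treated liver 1, 2 or 5 or control liver 2, 3, 4 or 5 (adjusted p up to 0.152) and Hand2 was lost without treated liver 2 or control liver 2 or 3 (adjusted p up to 0.217). Of 2 Col3a1 probe sets 1 passed. Of 3 Hand2 probe sets 1 passed, and the highest difference among them was 0.098. The list mean was 7.46 to 7.81 in treated and 7.53 to 8.45 in control livers. None of 16 endothelial and none of 8 cholangiocyte markers passed, and of 14 hepatocyte markers 2 fell, Hnf4a among them. Of the remaining lists, 0 genes rose and 2 of 13 UDP-glucuronosyltransferases and their cofactor genes fell, 0 rose and 1 of 24 transporters fell, 2 rose and 2 fell of 13 heme genes, 0 rose and 1 of 19 perivenous genes fell, 0 rose and 2 of 15 periportal genes fell, and 0 rose and 1 of 10 thyroid response genes fell. The shares lower were 12.5% for stellate and matrix genes, 14.29% for hepatocyte markers and 15.38% for the glucuronosyltransferase list. They were 4.17% for transporters, 15.38% for heme genes (15.38% higher), 5.26% for perivenous, 13.33% for periportal and 10.0% for thyroid response genes. Over all genes 2.62% were higher and 2.70% lower, and each of these list shares rests on only 1 or 2 genes. None of the 4 measured genes of the Dlk1-Dio3 cluster passed, and Meg3, a noncoding RNA of that cluster, differed by -0.08 ± 0.181 (adjusted p = 0.884).

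**Figure D4:**
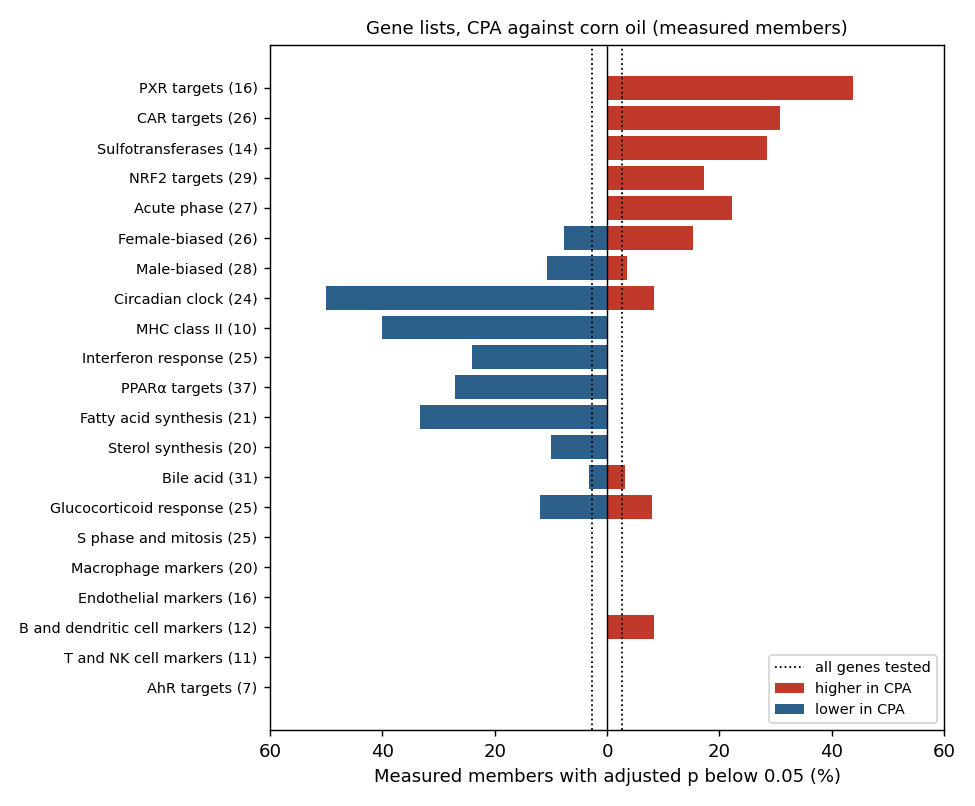
Percentage of measured members of 21 gene lists that were higher (right, red) or lower (left, blue) in CPA than in corn oil livers at an adjusted p below 0.05; the number measured is in brackets and dotted lines mark the shares over all 18193 genes, 2.62% and 2.70%. PXR targets have the largest share higher, 7 of 16, and circadian clock genes the largest share lower, 12 of 24.

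Where the livers given CPA differ from those given other inducers was tested against 1,4-dichlorobenzene (DCB, 600 mg/kg by gavage) and phenobarbital (PB, 0.05% w/v in drinking water), each given to 5 male C57BL mice for 28 days. DCB shares the corn oil controls with CPA, so CPA and DCB livers were set against each other directly, and 748 genes differed (4.11%), 316 higher (1.74%) and 432 lower (2.37%) in CPA livers. PB has its own water controls, and the response to CPA minus the response to PB differed for 261 genes (1.43%). The titles of the PB arrays carry a "(2)" of unknown meaning, and doses and routes differ between all 3 compounds. Without treated liver 2 the second count was 162, and without PB liver 2 it was 145.

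Sult1e1 stood out in both tests, at 6.25 ± 0.413 above DCB livers (adjusted p = 1.78e-21) and with a response 6.26 ± 0.584 above that to PB (adjusted p = 4.23e-13). Both errors pool the spread of 19 groups, while the SD of Sult1e1 among CPA livers was 2.09. Against their own controls Sult1e1 differed by 0.14 after DCB and by 0.13 after PB. Moxd1 was 5.64 ± 0.869 above DCB livers and its response 5.89 ± 1.23 above that to PB (adjusted p = 0.00276). Nebl was 3.98 ± 0.255 above DCB livers, and its response exceeded that to PB by 2.28 ± 0.360 (adjusted p = 1.77e-05), although PB itself raised Nebl by 1.66. Cyp17a1 was higher by 3.53 ± 0.501 than in DCB livers and by 2.80 ± 0.709 in response than after PB (adjusted p = 0.0218). Dct (3.89 and 3.24), Rnase2a (2.98 and 2.84) and Acnat2 (2.96 and 4.19) also passed in both tests.

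For classical targets the order was different. Cyp2b10 rose by 5.60 after CPA, 6.47 after DCB and 7.93 after PB. Its level in CPA livers differed from DCB livers by -0.88 (95% interval -1.81 to 0.05, adjusted p = 0.388), and its response differed from that to PB by -2.33 ± 0.660 (adjusted p = 0.0488). Cyp2c55 differed by -1.12 from DCB livers (interval -1.86 to -0.38, adjusted p = 0.0715) and by -1.92 ± 0.526 from the response to PB (adjusted p = 0.0391). Gstm3 rose by 3.48, 3.06 and 3.33, with differences of 0.42 (interval -0.23 to 1.07) and 0.14 (interval -0.77 to 1.06), neither past the threshold. Ces2a was higher in CPA livers than in DCB livers by 1.33 ± 0.121 and in response than after PB by 0.62 ± 0.172 (adjusted p = 0.0407), while Gstm4 and Cbr1 were lower than in DCB livers, by -1.27 ± 0.158 and -1.02 ± 0.200. In direction alone, 26 genes rose after both CPA and PB, which is 5.5% of the 476 that rose after CPA and 25.0% of the 104 (0.572% of all tested) that rose after PB. The 7 that fell after both are 1.4% of 492 and 9.7% of the 72 (0.396%) that fell after PB.

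Among the falls, Mme was lower than in DCB livers by -3.41 ± 0.262 and its response differed from that to PB by -3.06 ± 0.370. H2-Aa (-2.73 and -2.77), H2-Ab1 (-2.59 and -2.41), Usp18 (-1.72 and -1.58), Serpina6 (-1.62 and -2.86) and Upp2 (-1.08 and -2.25) passed in both tests as well. Serpina6 rose by 0.86 after PB (adjusted p = 0.0093). Ccnd1 differed from DCB livers by -1.08 (interval -1.86 to -0.29, adjusted p = 0.116) and from the response to PB by -1.48 (adjusted p = 0.199), so that its fall was not shown to differ between compounds. Dbp differed from the response to PB by -2.63 ± 0.653 (adjusted p = 0.0183) but from DCB livers only by -1.23 (interval -2.14 to -0.31, adjusted p = 0.134), and Ciart from DCB livers by -0.54 (adjusted p = 0.364). DCB livers differed from the shared corn oil livers by -1.02 for Dbp and -1.07 for Ciart.

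**Figure D5:**
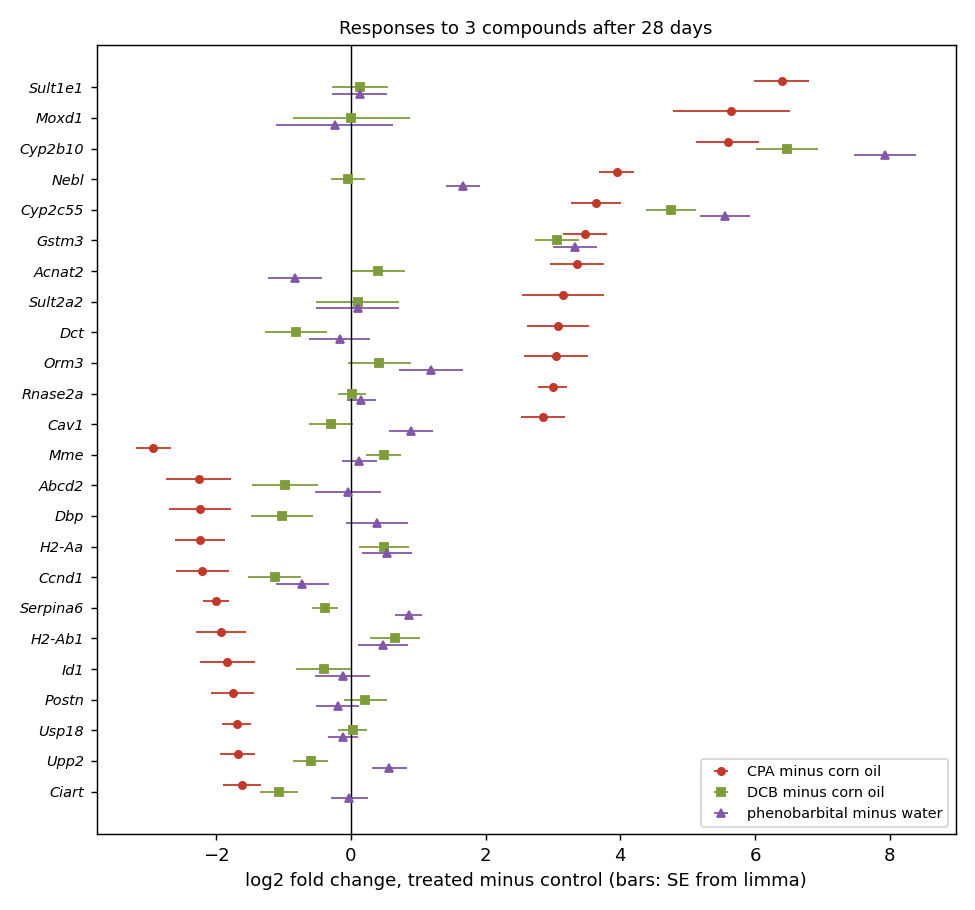
Log2 fold change of the 12 largest rises and 12 largest falls after CPA, with the change of the same genes after DCB (same corn oil controls) and PB (water controls); points are differences of 5 against 5 livers and bars their SE. Sult1e1, Moxd1, Sult2a2, Dct and Rnase2a lie near 0 after DCB and PB compared with CPA, whereas Cyp2b10, Cyp2c55 and Gstm3 rise after all 3.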

How the data were processed

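Livers of 91 male mice were profiled from biotin-labelled total RNA on Affymetrix arrays, per the labels' protocols. The authors deposited log2 values, 1 per probe set, made with RMA according to the submitters' processing notes; the software version and a genome build are not given in the sources used here. Of 45037 probe sets, 34945 carried a single gene symbol in the platform's table, 932 several and 9160 none, and where a gene had several single-symbol sets the brightest on average was used. With limma 3.58.1 (R 4.3.3), a model with 1 mean per group was fitted to all 91 arrays (19 groups, 72 residual degrees of freedom), with moderated two-sided tests, a mean-variance trend and Benjamini-Hochberg adjustment over 18193 genes. The code was tested on simulated data. Labels do not give scan dates or batches. The number of arrays limits the precision.

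The genes compared, the 42 gene lists (650 of 740 genes measured, counting Nckap1 matched in place of H19) and the tests were chosen with earlier results of these data known. The 5 genes Sult1e1, Moxd1, Nebl, Mme and Abcd2 formed one of the lists (3 rose and 2 fell, as chosen). Named were the 12 largest rises and falls whose treated values lay outside the controls' range, genes chosen beforehand, and per list up to 5 called and 2 uncalled members. Replicate numbers did not pair livers (correlations of deviations from -0.13 to 0.11). Promoters came from RefSeq on GRCm38.p6.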

Additional observations from a re-analysis of the deposited data

Results flagged for a closer look

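For 128 genes named here the lowest and highest value of each group of 5 livers were compared with the other 4. A value was singled out when its gap to the nearest of the others exceeded 0.710 of the group's range. Of 256 groups examined 19 met this, and chance alone gives about 1 in 20. Treated liver 2 made up 9 of the 19 and was the lowest of its group in each.

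That liver read 11.90 for Hnf4a (others from 12.46 to 12.67), 9.54 for Gys2 (from 10.18 to 10.27), 9.18 for Insr (from 10.28 to 10.62) and 4.65 for Hand2 (from 5.80 to 6.03). It read 7.78 for Ddah1 (from 9.84 to 10.67), which encodes an enzyme that clears methylarginines, and 6.99 for the transcription factor gene Klf13 (from 7.99 to 8.35). Among clock genes it read 5.90 for Cry2 (from 7.24 to 7.51), 8.87 for Rora (from 9.95 to 10.33) and 8.42 for Tef (from 9.61 to 10.07).

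In other treated livers Irf7 was lowest in liver 1 at 6.65, Csf1r was highest in liver 5 at 11.09 (others from 9.71 to 10.09) and Bhlhe40 was highest in liver 5 at 10.11. Among control livers, liver 1 was highest for Lcn2 at 9.35 (others from 6.09 to 7.01), for Orm2 at 9.36 (from 6.34 to 7.16) and for Sult1b1 at 8.62, and lowest for Inmt at 12.92. Control liver 2 was highest for Cyp2u1 at 8.36, control liver 4 lowest for Pdk4 at 5.59, and control liver 5 highest for Irf7 at 7.96.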

How the results depend on the processing

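Counts of called genes depended on the control and on the spread used. With only the groups compared in the fit, 289 genes were called for CPA against corn oil (152 higher, 137 lower) and 239 against DCB. With the replicate number as a block in that fit there were 196 (96 higher, 100 lower), 204 against DCB and 151 for the difference from PB. Array weights gave 1186 against DCB and 483 for the difference from PB. Testing each probe set on its own gave 226 changes of at least 2-fold. The mean of the 6 other 28-day control groups as the control, chosen after seeing the data, gave 5816 calls (2967 higher, 2849 lower, 375 of at least 2-fold); of 787 shared genes 5 changed direction, and Wee1 turned to 0.068. Leaving out 1 liver at a time gave 602 to 1063 calls (323 to 545 higher, 265 to 530 lower, 132 to 179 of at least 2-fold), 605 to 950 against DCB and 145 to 362 for the difference from PB. With the dim-probe filter, no trend, a robust prior, centred arrays or the mean of a gene's probe sets, these counts stayed within 1.5 times. With only the groups compared in the fit, 37 of 107 named calls ended, and 11 of these had held in every leave-out: Sult2a2 (adjusted p = 0.263), Ly6d (0.147), Gldc (0.0961), Ppargc1b (0.0835), Ddah1 (0.0824), Gstt3 (0.0686), Cyp4a31 (0.0632), Aldh1a7 (0.0607), Kcnk1 (0.0607), Cyp4v3 (0.0604) and Bhlhe40 (0.0518). The others include Lcn2 (0.0594), Hnf4a (0.0855) and Cyp4a14 (0.0886).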

Other observations

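The genes ranked just after those named in the report, looked up after their values were seen, hold other changes of more than 2-fold. Bmper, a secreted modulator of BMP signalling, read 7.75, 5.42, 4.24, 7.62 and 7.03 in treated livers 1 to 5 against 3.68 to 3.81 (2.65 ± 0.407, adjusted p = 2.84e-06). Myom3, a gene of the sarcomere, read 7.96, 4.84, 5.36, 7.67 and 5.90 against 3.66 to 4.04 (2.46 ± 0.236), and livers 1 and 4 were highest for both. With only the groups compared in the fit the adjusted p was 0.0272 for Bmper and 0.0257 for Myom3. Omd, a small proteoglycan gene, rose by 2.02 ± 0.253 and Pls1, an actin-bundling protein gene, by 1.49 ± 0.215, with all treated livers above all 32 control livers, as for Myom3. The potassium channel gene Kcnk1 read 8.25 and 8.30 in livers 2 and 3 and 5.67 to 6.42 in the other 3, against 4.81 to 5.36. The calpain gene Capn8 was also highest in livers 2 and 3, at 8.0 and 8.33, against 5.22 to 6.05 in the controls.

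Genes of retinoid and lipid handling were among them. Cyp26a1, which degrades retinoic acid, rose by 1.82 ± 0.325, from 7.63 to 8.19 up to 9.18 to 10.47. Apoa4, a lipoprotein gene, rose by 1.65 ± 0.344, and Insig2, which restrains sterol regulatory element-binding proteins, by 1.45 ± 0.169. Among the falls, Ppargc1b, a coactivator of mitochondrial genes, fell by 1.39 ± 0.299, Il6ra, the interleukin-6 receptor gene, by 1.45 ± 0.297 and the heat shock gene Hspa1b by 1.47 ± 0.340. Of 2 Il6ra probe sets 1 passed, and the other differed by 0.115. Hspa1b read 8.76 to 9.44 in treated livers, below all 32 control livers.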
